A study of Mus musculus with 2 samples.

Results

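Fgf15, Ntf3, C1ql2, S1pr5, Kctd16 and Plxdc1 are 6 mouse genes that encode secreted ligands or proteins that act at the cell membrane. They are 6 of the 158 genes in the authors' deposited table, and they were chosen by name from that table with its values in view. Every gene in the table had itself been selected on these same libraries by the authors, at a p-value under 0.05 together with a log2 fold change beyond 1 in size, and all 158 are marked as higher with the shRNA. A higher read count in the shRNA library was therefore a condition for being listed, and the ratios below are a description with no test.

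The cells were neural stem cells taken from the brain of ICR mouse embryos at E12 and kept in proliferation medium for 1 day. Both cultures were infected with lentivirus, which in the control carried the Piscor plasmid and in the other culture carried Nap1l1-shRNA1, a short hairpin RNA against the histone chaperone gene Nap1l1. Poly(A) RNA was sequenced from 1 library per condition, so that no value has a replicate and a single hairpin stands for the knockdown. Nap1l1 itself was not analysed here, so the extent of its knockdown was not checked. None of 51 marker genes of neural stem cells, neurons, oligodendrocyte lineage, astrocytes, endothelium, microglia and mesenchymal cells was in the table. The cell type could therefore not be checked on its markers.

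Secreted growth factors reach neighbouring cells through receptors at the membrane. Fibroblast growth factors act through receptor tyrosine kinases and, in the embryonic brain, take part in patterning and in the balance between division and differentiation of progenitors. Neurotrophins bind Trk receptors and the shared receptor p75 and are best known for the survival and growth of neurons. Sphingosine 1-phosphate is a lipid signal read by G protein-coupled receptors, and the GABA-B receptor is a G protein-coupled receptor of the transmitter GABA whose kinetics are set by subunits of the KCTD family.

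The library totals were 8777836 reads with the shRNA and 8325166 in the control, so that 1 read was worth 0.114 and 0.12 CPM (counts scaled to the library total). All 6 genes were weakly expressed. They had 12 to 20 reads in the shRNA library and 1 to 8 in the control, and none reached 1 CPM in the control. Among all 158 listed genes the median was 11 reads with the shRNA and 2 in the control, and 39 genes had no control read, whereas each of the 6 had at least 1. For each gene the ratio of CPM, shRNA over control, is given with an exact 95% interval that covers counting error only. Reads that are PCR copies of 1 molecule are not independent, and the difference between 2 control cultures is not measured. In bulk RNA, more cells of a type and more RNA per cell cannot be told apart.

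**Figure D1:**
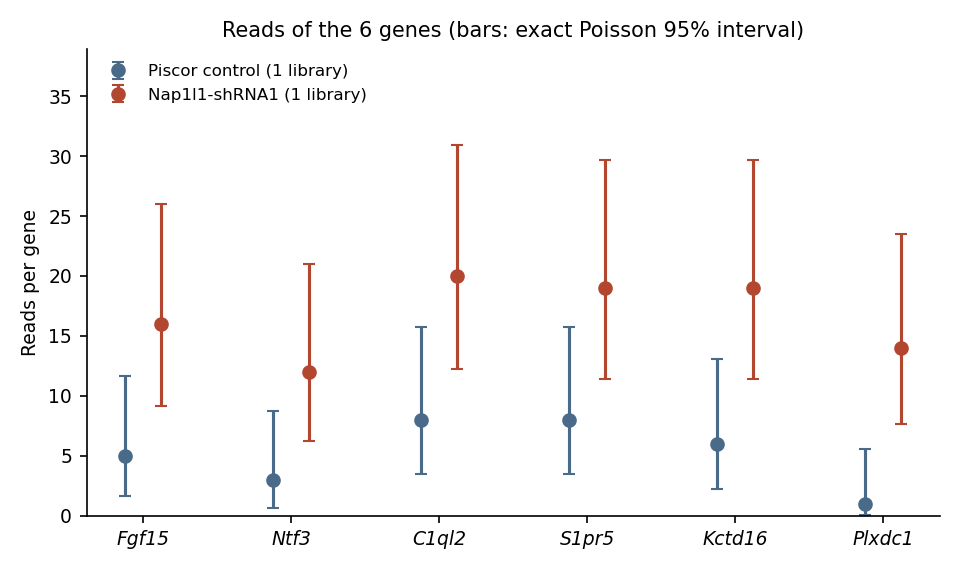
Reads of each of the 6 genes (y axis) in the Piscor control library (blue) and the Nap1l1-shRNA1 library (red), with exact Poisson 95% intervals as bars. Every gene had more reads with the shRNA, from 12 to 20 against 1 to 8. The 2 intervals of a gene overlapped for 5 of the 6 genes, Plxdc1 being the exception. The share of all listed genes with separate intervals was not computed, so Plxdc1 is not shown to stand out among them.

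Of the 3 secreted ligands, Fgf15 is the fibroblast growth factor that in the adult gut acts as a hormone on bile acid synthesis and in the embryo is made in the developing nervous system. The gene (ENSMUSG00000031073) lies on chromosome 7 at 144896532 to 144900953, plus strand. It had 16 reads with the shRNA and 5 in the control, or 1.82 and 0.601 CPM, and the ratio was 3.03 (1.06 to 10.6). The Poisson intervals of the 2 counts, 9.15 to 26 and 1.62 to 11.7, overlapped. Whether these reads came from Fgf15 mRNA depends on strand, because the antisense RNA Gm26793 is transcribed across its start. Of the 654 coding bases of the longest Fgf15 transcript, 331 (50.6%) lay in exons of Gm26793. Of that transcript as a whole, 479 of 1810 bases (26.5%) did so. Gm26793 was listed as well, with 24 reads against 9 and a ratio of 2.53 (1.13 to 6.18). With both genes summed, the counts were 40 and 14 and the ratio was 2.71 (1.44 to 5.39). The sources used here do not say whether the authors counted by strand, and how many reads of either gene came from the shared stretches was not tested. The authors' deposited table also annotates Gm26793 with the FGF domain and with all 11 of the Gene Ontology process and component terms of Fgf15, so a tally of its annotations counts that locus 2 times.

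The coding part of the first Fgf15 exon that Gm26793 exons cover from the other strand is shown because a read from it fits both genes where strand is not kept. It spans 227 bases on GRCm38, chr7:144896679-144896905, plus strand, read from the GENCODE M21 transcript, with the start codon in capitals.
Fgf15: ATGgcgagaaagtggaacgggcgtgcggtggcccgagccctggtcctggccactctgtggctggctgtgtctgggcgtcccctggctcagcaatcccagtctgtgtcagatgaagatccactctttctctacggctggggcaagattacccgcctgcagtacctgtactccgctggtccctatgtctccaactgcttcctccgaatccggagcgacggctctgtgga

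Ntf3 encodes neurotrophin 3, the ligand of TrkC, which supports proprioceptive sensory neurons. The gene (ENSMUSG00000049107) lies on chromosome 6 at 126101412 to 126166910, minus strand, and its 3 annotated transcripts hold 1714 exon bases in a span of 65499. It had 12 reads with the shRNA and 3 in the control, or 1.37 and 0.36 CPM, and the ratio was 3.79 (1.02 to 20.9). No annotated exon on the opposite strand overlapped it. The lower limit lay just above 1, and with 1 more control read it would be 0.862.

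C1ql2 encodes a secreted protein of the C1q family, with a collagen-like stretch and a C1q head, known as an organiser of synapses. The gene (ENSMUSG00000036907) lies on chromosome 1 at 120340582 to 120343174, plus strand, with 1 annotated transcript of 2000 bases and no opposite-strand exon. It had the most reads of the 6 with the shRNA, 20 against 8 in the control, or 2.28 and 0.961 CPM. The ratio was 2.37 (1.00 to 6.22), with a lower limit that hardly cleared 1.

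Of the 3 genes that act at the membrane, S1pr5 encodes a receptor of sphingosine 1-phosphate that is known from oligodendrocytes and natural killer cells. The gene (ENSMUSG00000045087) lies on chromosome 9 at 21242912 to 21248443, minus strand. It had 19 reads with the shRNA and 8 in the control, or 2.16 and 0.961 CPM, and the ratio was 2.25 (0.942 to 5.95). It was the 1 gene of the 6 whose interval included 1, and its deposited p of 0.0437 was the closest of the 6 to the authors' limit of 0.05. No listed gene lies outside that limit, so values just beyond it were not analysed here. Exons of Gm48303, a transcript on the opposite strand that awaits experimental support, covered 51 of its 2500 exon bases (2.04%).

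Promoter sequences in the RefSeq table (GRCm38.p6) were matched by symbol for Ntf3, C1ql2 and S1pr5, with 2 start sites for Ntf3. For the Ntf3 start that lies downstream, and for C1ql2 and S1pr5, the 250 bases before the start are shown. These 3 genes are shown because only they were matched, so that their base composition can be set beside that of all windows. Capitals mark the GC box GGGCGG on either strand.
Ntf3, chr6:126164961-126165210, minus strand: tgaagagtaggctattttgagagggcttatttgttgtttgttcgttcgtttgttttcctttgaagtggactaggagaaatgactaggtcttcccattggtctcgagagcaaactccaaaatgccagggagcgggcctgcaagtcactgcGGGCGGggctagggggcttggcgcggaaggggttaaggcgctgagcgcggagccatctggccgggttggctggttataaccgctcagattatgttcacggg
C1ql2, chr1:120340332-120340581, plus strand: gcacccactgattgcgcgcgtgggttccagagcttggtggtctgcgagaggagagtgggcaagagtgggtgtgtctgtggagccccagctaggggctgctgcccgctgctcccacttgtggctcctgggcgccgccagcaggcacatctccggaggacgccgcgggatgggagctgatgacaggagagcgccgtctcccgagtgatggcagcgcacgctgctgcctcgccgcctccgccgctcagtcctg
S1pr5, chr9:21248444-21248693, minus strand: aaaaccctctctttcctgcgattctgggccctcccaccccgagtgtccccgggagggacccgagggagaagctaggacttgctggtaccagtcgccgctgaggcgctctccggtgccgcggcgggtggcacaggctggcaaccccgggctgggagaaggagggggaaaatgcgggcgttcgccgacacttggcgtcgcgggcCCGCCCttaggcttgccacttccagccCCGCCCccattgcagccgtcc

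The C1ql2 and S1pr5 windows were rich in G and C, with 68.8% and 69.2%, and the downstream Ntf3 window had 54%. The window of the upstream Ntf3 start, not shown, had 62% and no GC box. The median of all 32851 windows of the same length was 52.4%, with quartiles of 45.2% and 61.2%. The GC box occurred 1 time in the downstream Ntf3 window and 2 times in the S1pr5 window, and it was absent from that of C1ql2. Of all windows, 32.7% held it. The TATA box letters TATAAA, which 12.4% of all windows held on either strand, occurred in none of the 3 windows shown. Such matches of letters describe these windows only. The S1pr5 window lies wholly within the exon of Gm48303 on the other strand.

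**Figure D2:**
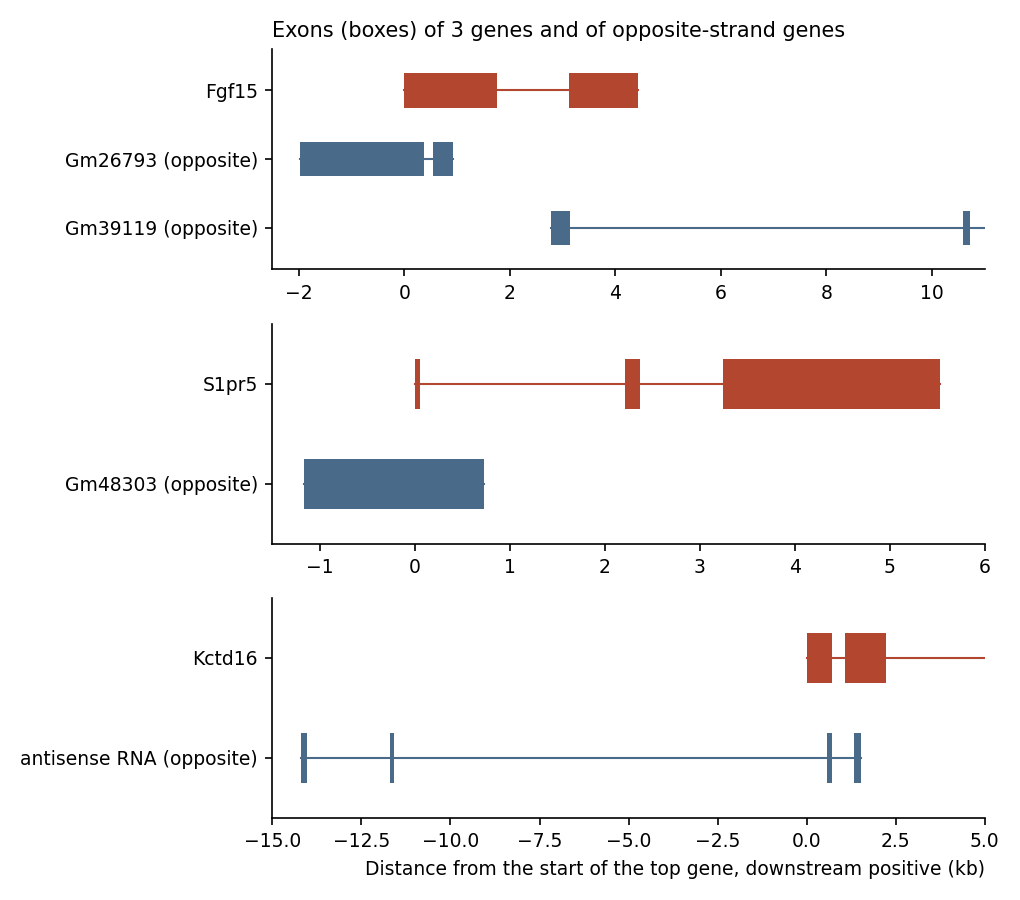
Annotated exons (boxes, all transcripts merged) of Fgf15, S1pr5 and Kctd16 (red) and of the opposite-strand genes that share exon bases with them (blue), by distance in kb from the start of the red gene, downstream to the right. Gm26793 covers the start of Fgf15, with 761 shared bases, while the overlap with S1pr5 is limited to its first exon, with 51; Kctd16 is cut off at the right.

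Kctd16 encodes an auxiliary subunit that binds the GABA-B receptor. The gene (ENSMUSG00000051401) lies on chromosome 18 at 40258361 to 40531168, plus strand, in the table. GENCODE M21 has a wider gene there, with 3477 exon bases in 10 transcripts, of which 1961 lie inside the position of the table. It had 19 reads with the shRNA and 6 in the control, or 2.16 and 0.721 CPM, and the ratio was 3 (1.15 to 9.19). An antisense RNA at its start shared 360 of the GENCODE exon bases (10.4%), of which 135 lie inside the position of the table. The shRNA count equalled that of S1pr5, and the control counts, 6 and 8, differed by 2 reads.

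Plxdc1 encodes a single-pass membrane protein with a plexin repeat, first known from the endothelium of tumours. The gene (ENSMUSG00000017417) lies on chromosome 11 at 97923238 to 97986444, minus strand, with 4836 exon bases and no exon of another gene across them. It had 14 reads with the shRNA and 1 in the control, or 1.59 and 0.12 CPM, and the ratio was 13.3 (2.02 to 561). Its Poisson intervals, 7.65 to 23.5 and 0.0253 to 5.57, did not overlap. With 1 more control read the ratio would be 6.64 (1.52 to 60.2), so the size of the change rests on a single read while the interval stays above 1. None of the 7 endothelial markers was in the table, so endothelial RNA in either culture was not tested.

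**Figure D3:**
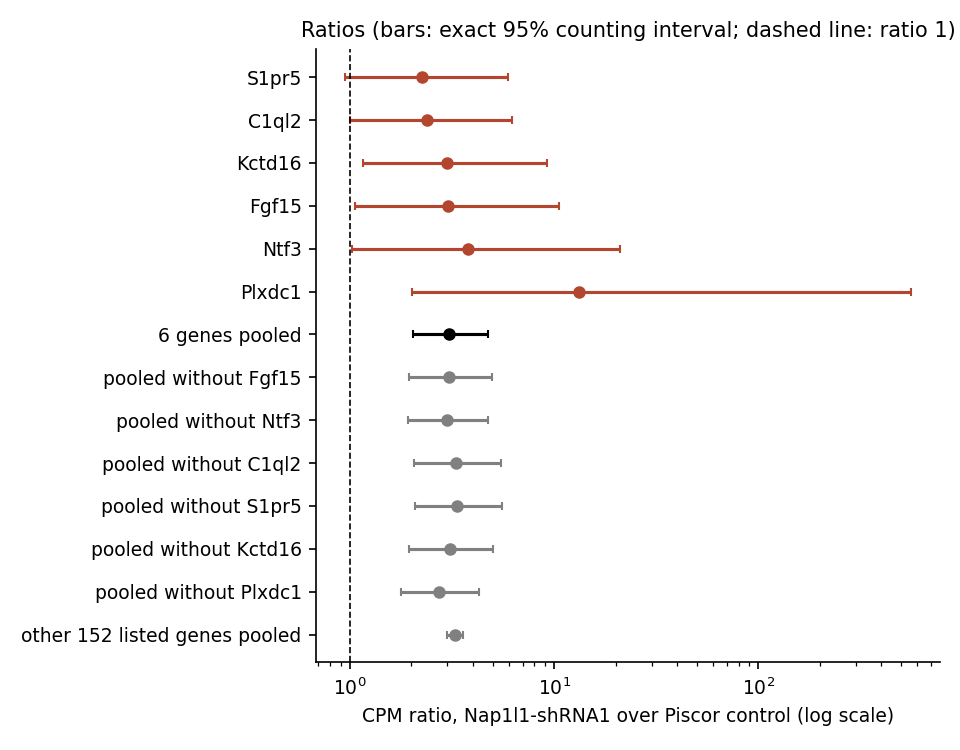
CPM ratio, shRNA over control, on a log axis, for each of the 6 genes (red), for the 6 pooled (black), and in grey for the pool without each gene and for the other 152 listed genes, with exact 95% counting intervals as bars. S1pr5 is the 1 gene whose interval crosses 1 (0.942), and the pooled ratio stays between 2.72 and 3.34 whichever gene is left out.

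Summed over the 6 genes there were 100 reads with the shRNA (Poisson interval 81.4 to 122), and the control had 31 (21.1 to 44). These are 11.4 and 3.72 CPM, and the pooled ratio was 3.06 (2.03 to 4.74). It ran from 2.72 (1.78 to 4.27) without Plxdc1 to 3.34 (2.08 to 5.56) without S1pr5. The interval lay above 1 without any 1 of the genes. Each gene was listed for being higher with the shRNA, so the ratio of every such pool had to lie above 1. The 3 ligands together had 48 reads against 16, a ratio of 2.85 (1.59 to 5.37). The 3 membrane genes had 52 against 15, a ratio of 3.29 (1.82 to 6.29), and the 2 intervals overlapped over most of their length. The 3 genes with no opposite-strand exon (Ntf3, C1ql2 and Plxdc1) had 46 against 12, a ratio of 3.64 (1.90 to 7.54). The 3 with one (Fgf15, S1pr5 and Kctd16) had 54 against 19, a ratio of 2.70 (1.57 to 4.82). As every listed gene was higher with the shRNA, both ratios had to lie above 1, and the part of the overlaps in them was not tested.

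The other 152 listed genes, pooled in the same way, had 2114 reads against 613, a ratio of 3.27 (2.99 to 3.58), which lies within the interval of the 6. The median ratio of the 6 genes was 3.02, and that of the 119 listed genes with a control read was 3.48. The 6 genes held 4.52% of the listed genes' reads with the shRNA and 4.81% in the control. On log2(CPM + 1) the median log2 ratio of the 6 was 0.81, beside 0.77 over all 158. Whether the 6 differ from the other listed genes was not tested.

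The interval lay above 1 for 5 of the 6 genes, where 60.1% of the 158 listed genes had such an interval. All 6 had a ratio of at least 2, as did 100% of the 119 genes with a control read, which follows from the listing. On log2(CPM + 1), 1 of the 6 (Plxdc1) reached a log2 ratio of 1, and 6.33% of the listed genes did. The authors' deposited table marks 1 of the 6 (Plxdc1) as significant, and 12% of all listed genes. Its adjusted p-values were 0.00578 for Plxdc1, 0.0816 for Kctd16, 0.119 for Fgf15, 0.128 for Ntf3, 0.163 for C1ql2 and 0.211 for S1pr5, by a test the sources used here do not name. These shares follow from values that also put the genes in the table, and nothing is read from them.

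**Figure D4:**
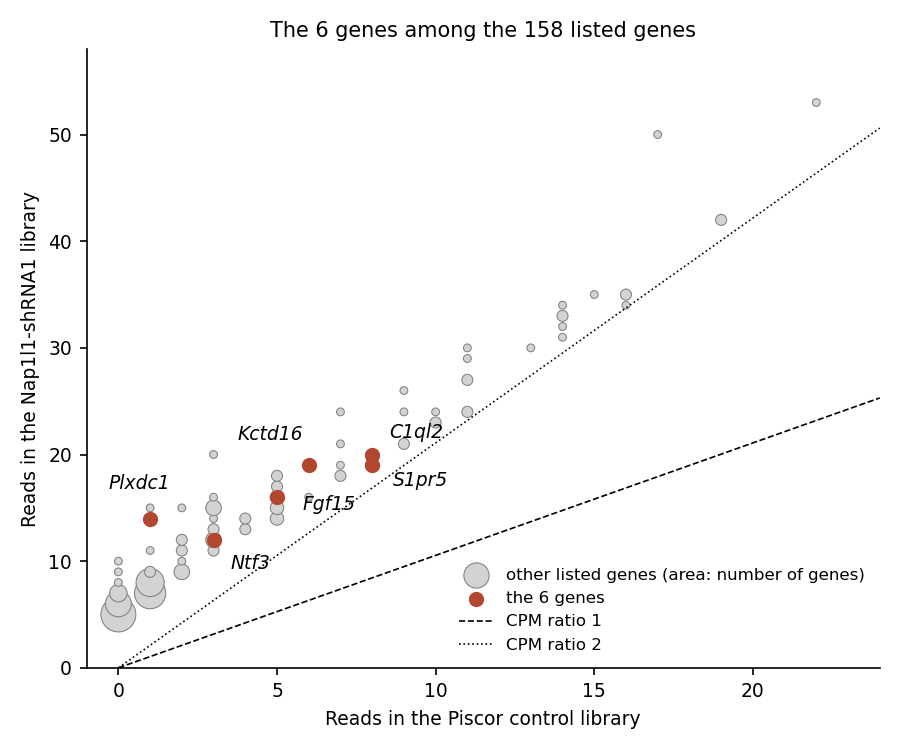
Reads in the control (x axis) and in the shRNA library (y axis) for all 158 listed genes, with the 6 genes in red and the area of a grey point showing how many other genes share that pair of counts. The lines mark a CPM ratio of 1 (dashed) and 2 (dotted); the 6 genes lie among the others, with Plxdc1 near the upper left edge at 14 reads against 1.

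The counts were too small to order the 6 genes by ratio. Plxdc1 had the highest ratio and S1pr5 the lowest, and the former was 5.89 times the latter with an exact interval of 0.635 to 280. Among the other 5 genes the largest factor was 1.68, between Ntf3 and S1pr5 (0.314 to 11.7). The interval included 1 for all 15 pairs of genes. This does not show that the genes changed alike, since the upper limit was 3.96 or more for every pair.

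Levels can be compared between genes only per length of transcript. In RPKM (CPM per kilobase of transcript, here over the union of annotated exons), C1ql2 was highest in the shRNA library, with 1.14 (Poisson interval 0.696 to 1.76). S1pr5 had 0.866, Ntf3 0.798, Kctd16 0.623, Fgf15 0.596 and Plxdc1 0.33 RPKM. The order was the same in the control, where C1ql2 had 0.48 RPKM (0.207 to 0.947), S1pr5 0.384, Ntf3 0.21, Kctd16 0.207, Fgf15 0.196 and Plxdc1 0.0248. Neighbours in this order did not differ beyond counting error in either library. Between the ends, C1ql2 was 3.45 times Plxdc1 with the shRNA (1.66 to 7.39) and 19.3 times in the control (2.59 to 858). With the longest transcript as the length these factors were 2.06 (0.989 to 4.4) and 11.5 (1.55 to 511), so that with the shRNA the interval then included 1. The order depends on the length as well. With the longest transcript, Fgf15 came to 1.01 RPKM with the shRNA and 0.332 RPKM in the control. With its exon bases inside the position of the table, Kctd16 came to 1.1 and 0.368 RPKM.

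**Figure D5:**
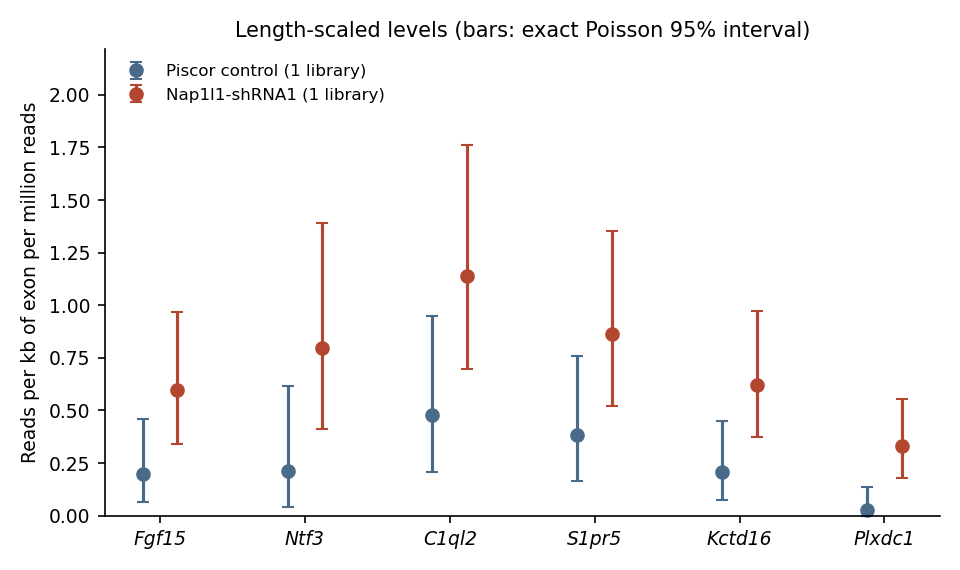
Level per length (RPKM, y axis) of the 6 genes in the control (blue) and shRNA (red) library, with exact Poisson 95% intervals as bars. C1ql2 is highest in both libraries, 1.14 and 0.48, and Plxdc1 lowest, 0.33 and 0.0248.

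Partners of the 6 genes were looked up in 7 lists of ligands, receptors, enzymes and targets with 109 genes in all. Beside the 6 genes themselves, 3 of them were in the table. Sgpp2 encodes a phosphatase that removes the phosphate of sphingosine 1-phosphate, the ligand of S1pr5. It had 30 reads with the shRNA and 13 in the control, and the ratio was 2.19 (1.11 to 4.57). Its levels, 0.854 and 0.39 RPKM, stood close to the 0.866 and 0.384 RPKM of S1pr5. Plxnb3, a plexin that binds semaphorin and carries the kind of repeat found in Plxdc1, had 8 reads against 1, a ratio of 7.59 (1.02 to 337). Fgf22, a ligand of the same family as Fgf15, had 5 reads with the shRNA and none in the control, and the lower limit of its ratio was 0.869. Pooled, these 3 genes had 43 and 14 reads, and their ratio was 2.91 (1.56 to 5.77). Being listed required a higher value with the shRNA, so this ratio had to lie above 1. Whether the partners rose with the 6 genes was not tested. Exons on the opposite strand shared 248 bases with Sgpp2 (of Farsb) and 82 with Fgf22 (of Rnf126).

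None of the 17 FGF receptors, co-receptors and feedback targets was in the table. Neither was any Trk receptor, any other C1q-like protein or cerebellin, any other sphingosine 1-phosphate receptor, nor the GABA-B receptor genes that Kctd16 serves. As the table holds genes marked higher only, these genes were not analysed here and were not read as unchanged.

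By the deposited annotation the 6 genes have no domain in common. Beside the FGF domain of Fgf22 and Gm26793, the 7tm_1 domain of S1pr5 recurred in Grpr, the receptor of gastrin-releasing peptide. A cellular component term is given to 99 of the 158 listed genes. The term extracellular region is given to 8 listed genes, of which 4 are among the 6 (Fgf15, Ntf3, C1ql2 and Plxdc1). Gm26793, annotated with the terms of Fgf15, is also among the 8. Plasma membrane is given to 18, with S1pr5 and Plxdc1 among them, and receptor complex to 4, with Kctd16 and Plxdc1. Regulation of neuron differentiation is given to Ntf3 and S1pr5 and to no other listed gene. The genes were put together by such functions, so these counts describe the choice.

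With 2 libraries, many listed genes had counts identical to those of a member, and likeness in level separates few of them. Fat2, a large cadherin, and the predicted gene Gm8902 had the 16 and 5 reads of Fgf15. Fam71d and 9430034N14Rik had the 12 and 3 reads of Ntf3. Msrb2 had the 20 and 8 reads of C1ql2, and Gm43080 and Gm7224 the 19 and 8 of S1pr5. Fcer2a had the 19 and 6 reads of Kctd16. No gene had the counts of Plxdc1, and the nearest over the 2 libraries was 2810403D21Rik with 15 reads against 1, at a distance of 0.062 on log2(CPM + 1).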

How the data were processed

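The table pairs Ensembl genes with values of 2 libraries. The deposited raw read counts, per the file headers, were used as they stand. The deposited normalized values are CPM: each equals the count scaled to 1 library total, recovered from the column within 4.9e-10 CPM, save that a control count of 0 is not written as 0. The deposited fold change (a ratio), log2 fold change, p-value and adjusted p-value are the authors', from 1 library against 1. The submitters' processing notes name HTSeq 0.6.0, TopHat2 2.0.12 and Bowtie 1.0.1, deposited without roles. Build and strand setting: not given in the sources used here. In the control column the name has i and s of Piscor exchanged, and it was matched to that title.

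Computed here with Python 3.11.15, scipy 1.17.1 and pandas 2.3.3 were CPM ratios with exact conditional binomial (Clopper-Pearson) 95% intervals, exact Poisson intervals, RPKM (CPM per kilobase) over GENCODE M21 exons (GRCm38) and exon overlaps. Table positions matched GENCODE M21 exactly for 4 of the 6 genes and overlapped it for all. Symbols matched for 157 of 158 genes. No filter on low counts and no test was used. The interval was checked on simulated independent Poisson reads with no selection of genes. Its coverage for genes selected on these same counts was not tested. Named genes were the 6, listed genes overlapping them, the nearest in level (at most 2 each, in alphabetical order) and listed members of 7 pathway lists. The members and lists were chosen with earlier results of these data known. With 1 library per group, no replicate error exists.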

Additional observations from a re-analysis of the deposited data

How the results depend on the processing

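Counting depth and the single library per group limit these results. Of 61 alternatives, 53 left a ratio or level within its counting interval, or a count within 1.5 times its value, and 8 did not. Many of the 53 could not move a value. A mid-p or 99% interval leaves the ratio itself as it was, and the deposited fold change repeats it. C1ql2 and S1pr5 have 1 annotated transcript each, so their longest transcript is the same length. The 53 are therefore no measure of robustness. The 5 genes with an interval above 1 became 1 (Plxdc1) with a 99% interval. They became 3 among the 4 genes with at least 20 reads in all, where fewer genes could be counted. With 1 more control read per gene, an alternative added after seeing the data, they became 2 (Kctd16 and Plxdc1). The mid-p interval gave 6 and unscaled reads gave 5. The shares of all listed genes under these settings were not computed, so these counts do not set any of the 6 apart. The 6 genes higher by 2-fold became 1 on log2(CPM + 1) and 0 on log2(CPM + 5), by the size of the pseudocount beside levels near 1 CPM. They stayed 6 on log2(CPM + 0.1), and all 4 genes with at least 20 reads in all remained. The shares of all listed genes on log2(CPM + 0.1) and log2(CPM + 5) were not computed. With the longest transcript as length, Fgf15 moved to 1.01 RPKM and Plxdc1 to 0.554 RPKM in the shRNA library. The control values grew by the same factors, to 0.332 and 0.0417 RPKM, but stayed within their wider intervals. With exon bases inside the table position, added after seeing the data, Kctd16 moved to 1.1 RPKM with the shRNA. Its control value became 0.368 RPKM, which stayed within its counting interval. The pooled ratio was 3.23 on unscaled reads, 3.67 as a geometric mean and 2.94 with Gm26793 added, the last also an alternative chosen after seeing the data. No paired analysis was possible because each condition has 1 library, and for the same reason no library could be left out.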
